A study of Mus musculus with 2 samples.

Results

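The genes described here make and run the presynaptic terminal. The set holds 38 genes for synaptic vesicle proteins, the membrane fusion machinery, calcium sensors, the active zone and vesicle endocytosis, and its members were taken by name and matched to the deposited tables by Ensembl identifier. All 38 were found among the 43309 nuclear genes listed. The tissue was hindbrain taken on postnatal day 0 from 2 mice of strain B6NCrl, named pup 3 (biological replicate 2) and pup 1 (biological replicate 1). The labels place both in 1 group, list no treatment and no genotype change, give no sex, and tie both animals to the same donor record. Each library started from 13 pg of RNA longer than 200 nt, described as 1 cell-equivalent, although it was drawn from RNA of a whole hindbrain extracted by the mirVana method and therefore samples a mixture of cells. The molecule is given as total RNA, and the protocol named is Smart-seq, a method for very small inputs that usually copies RNA from its poly(A) tail.

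A neuron stores transmitter in small vesicles that are tethered at the active zone, a protein scaffold facing the receiving cell. Docked vesicles are primed by assembly of SNARE proteins, fuse when calcium binds synaptotagmin, and are then taken back by clathrin, dynamin and their adaptors. At birth the hindbrain already drives breathing, suckling and posture, while many of its circuits, the cerebellum above all, are still forming synapses.

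The splice forms of these genes matter to what the values below can say, and the sequences that tell them apart were read from the GENCODE M21 transcripts on GRCm38. SNAP-25, the SNARE anchored in the plasma membrane by fatty acids, is made from either of 2 copies of exon 5 on the plus strand of chromosome 2, within coding sequence. The upstream copy, chr2:136769743-136769860, is the one used in SNAP-25a and is held by transcript Snap25-202. The downstream copy, chr2:136770057-136770174, is the one used in SNAP-25b and is held by Snap25-201. Capitals mark the 31 of 118 bases at which the copies differ.
Snap25 exon 5, upstream copy: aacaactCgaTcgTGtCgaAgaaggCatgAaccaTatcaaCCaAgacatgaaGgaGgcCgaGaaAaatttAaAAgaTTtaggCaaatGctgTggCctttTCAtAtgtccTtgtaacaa
Snap25 exon 5, downstream copy: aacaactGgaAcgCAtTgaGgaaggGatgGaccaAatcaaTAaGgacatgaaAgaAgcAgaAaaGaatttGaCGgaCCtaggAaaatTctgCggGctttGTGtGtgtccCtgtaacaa

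Dynamin 1, the GTPase that pinches vesicles off the membrane, likewise has alternative copies of exon 10, on the minus strand of chromosome 2 and wholly coding. The upstream copy lies at chr2:32334682-32334820 and is held by 5 listed transcripts, and the downstream copy lies at chr2:32333066-32333204 and is held by Dnm1-201. Capitals mark the 39 of 139 bases that differ, which leaves 71.9% identity, close to the 73.7% of the Snap25 pair.
Dnm1 exon 10, upstream copy: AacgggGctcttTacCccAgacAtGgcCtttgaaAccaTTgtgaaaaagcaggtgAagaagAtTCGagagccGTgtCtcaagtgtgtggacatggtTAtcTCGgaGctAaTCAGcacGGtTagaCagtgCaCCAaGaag
Dnm1 exon 10, downstream copy: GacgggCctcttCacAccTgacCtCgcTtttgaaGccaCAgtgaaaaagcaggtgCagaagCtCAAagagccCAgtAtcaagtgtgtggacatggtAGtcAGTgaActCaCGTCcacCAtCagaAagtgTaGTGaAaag

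Further forms differ by a stretch of coding sequence that is present or absent. Synapsin Ia (Syn1-201) begins its last exon 38 bases before synapsin Ib (Syn1-202), at chrX:20861572-20861609 on the minus strand. The Stx1a-204 transcript, annotated as a target of nonsense-mediated decay, begins its exon 9 with 83 bases that Stx1a-201 lacks, at chr5:135048911-135048993 on the plus strand. Snap91-202 holds an 84-base exon that Snap91-201 skips, at chr9:86774197-86774280 on the minus strand.
Syn1, 38 bases of Syn1-201: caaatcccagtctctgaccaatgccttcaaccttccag
Stx1a, 83 bases of Stx1a-204: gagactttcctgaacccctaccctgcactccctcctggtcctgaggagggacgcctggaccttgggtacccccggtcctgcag
Snap91, 84-base exon of Snap91-202: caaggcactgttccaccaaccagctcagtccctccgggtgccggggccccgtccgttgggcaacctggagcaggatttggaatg

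The libraries held 29866728 expected counts in pup 3 and 35462381 in pup 1, where an expected count is an estimate that splits reads shared among transcripts. Spike-in RNAs took 2.18% of counts in pup 3 and 2.31% in pup 1, and mitochondrial genes took 3.11% in pup 3 and 3.33% in pup 1. At an expected count of 5 or more, 10527 nuclear genes were detected in pup 3 and 12251 in pup 1. All 10 pan-neuronal markers were detected in both pups, with summed levels of 8331 TPM in pup 3 and 10259 in pup 1. TPM is a length-scaled share of transcripts, here rescaled to 1000000 over nuclear genes. Of 14 Hox genes of the hindbrain 6 were detected in both pups, and of 8 forebrain genes none was, with 1 count of Tbr1 in pup 1 in all. Markers of other cells were present too. Astrocyte and radial glia markers (7 of 8 detected in both) summed to 7444 TPM in pup 3, against 8136 TPM in pup 1, with none at 0. Oligodendrocyte markers (6 of 8, Mog and Olig2 at 0 in pup 3) summed to 318 TPM in pup 3, against 571 TPM in pup 1. Choroid plexus markers (3 of 5, Kl and Clic6 at 0 in both) summed to 3602 TPM in pup 3, against 3244 TPM in pup 1. Microglial markers (3 of 7, Csf1r and Tyrobp at 0 in pup 3, Cx3cr1 and P2ry12 at 0 in pup 1) summed to 194 TPM in pup 3, against 186 TPM in pup 1. Endothelial markers (3 of 7, Flt1 at 0 in pup 1) summed to 218 TPM in pup 3, against 184 TPM in pup 1. Red cell markers summed to 3941 TPM in pup 3 and 1486 in pup 1, with Alas2 at 0 in pup 3 and Slc4a1 at 0 in pup 1, and 4 of 6 were detected in both. Meningeal markers summed to 4709 TPM in pup 3 and 2540 in pup 1, mostly Ptgds, with 5 of 6 detected in both and Lum at 0 in pup 3. Markers of endocrine cells, which use many of the same genes as synapses, summed to 601 TPM in pup 3 and 615 in pup 1. Of that list Chga, Chgb and Scg2, which neurons express as well, were detected in both, whereas Gh, Prl, Pomc and Ins1 were at 0 in both and Pcsk1 at 0 in pup 3. The part of these other cells in the differences given below was not tested.

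Nearly all of the listed members were detected from this small input. Of the 38 genes, 37 had 5 or more counts in both pups, whereas 37.8% of all protein-coding genes did. Of 95 other genes of the same steps, 67 (70.5%) did. Both lists were chosen with earlier results of these data known, so these counts do not measure how well presynaptic genes were captured. The exception among the members was Syn2, with 4 counts in pup 3. The genes together took 0.879% of nuclear counts in pup 3 and 0.779% in pup 1, or 5034 TPM in pup 3 and 4768 in pup 1. The median gene was at 67.5 TPM in pup 3 and 60.8 in pup 1. Levels above 100 TPM in both pups were reached by 13 genes, and levels under 10 TPM in at least 1 pup were found for 10. A count of 0 allows up to 3 counts, which for a transcript of 1000 nt effective length is 0.164 TPM in pup 3 and 0.145 in pup 1. All intervals and floors given here cover counting error only, since reads without molecular identifiers are not independent molecules. In such bulk RNA, fewer cells of a type and less RNA per cell cannot be told apart.

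Within the member list, levels differed by step of the vesicle cycle. The 10 SNARE genes had the highest median, 297 TPM in pup 3 and 254 in pup 1. Calcium sensors and complexins came next at 117 TPM in pup 3 and 118 in pup 1. The 4 endocytosis genes had a median of 89.98 TPM in pup 3, against 68.7 TPM in pup 1, and the 12 vesicle proteins one of 57.8 TPM in pup 3, against 47.4 TPM in pup 1. The 5 active zone genes were lowest, at 18.9 TPM in pup 3 and 4.10 in pup 1. Active zone transcripts are also long, and over the 38 genes the mean level went with effective length at a Spearman correlation of -0.56. That is a description over genes that share the same libraries and the same length scaling. The order of the steps belongs to the genes listed. Of the further genes of the same steps given below, 20 other SNAREs and regulators had a median of 35.6 TPM in pup 3 and 35.0 in pup 1. For 24 other endocytosis genes it was 58.6 TPM in pup 3 and 46.1 in pup 1.

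**Figure D1:**
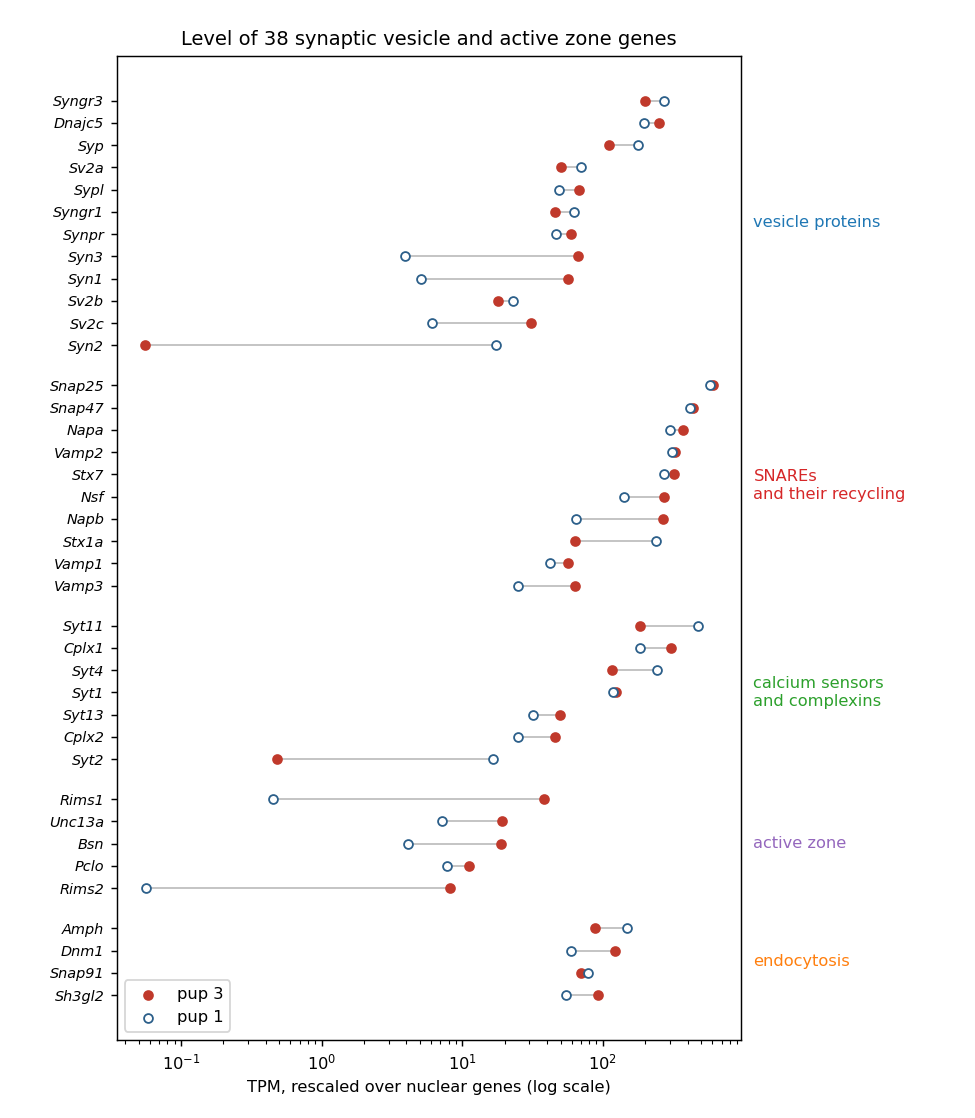
Level of each of the 38 genes in TPM on a log axis, by step of the vesicle cycle, with filled red points for pup 3, open blue points for pup 1 and a grey line joining the pups. Snap25 tops the set in both pups, and the widest gaps are those of Syn2, Rims1, Rims2 and Syt2.

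Among 12300 nuclear genes with at least 50 counts in at least 1 pup, all 38 members included, a difference of 4-fold or more was counted on log2(TPM + 1), a scale that understates the differences of low genes. The fold is pup 3 over pup 1, with 1 library per pup, so it has no replicate check and no test was made. Of the members, 6 were at least 4-fold higher in pup 3, where the background is 16.7 percent of all such genes, and these were Syn1, Syn3, Sv2c, Napb, Rims1 and Rims2. At least 4-fold higher in pup 1 were 2 members, Syn2 and Syt2, where the background is 24 percent of genes. The other 30 lay within 4-fold. In either direction 8 of 38 members passed the fold, and the background is 40.7 percent. The members' median log2 ratio was 0.35, against -0.16 over all 12300 genes and 0.12 over genes detected in both pups. Just past the fold were Napb at a log2 ratio of 2.03 and Sv2c at 2.17, and just short of it were Bsn at 1.97 and Stx1a at -1.89. With edgeR or DESeq2 factors on counts Sv2c and Napb fell inside 4-fold while Bsn and Dnm1 passed it, and with a pseudocount of 5 Sv2c, Napb, Syt2 and Rims2 fell inside it, all in the same direction as before.

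The share of genes past the fold fell with level, for all genes and for members. At a mean of 3 to 10 TPM, 75.2% of all genes differed 4-fold, as did 3 of 4 members. At 10 to 30 TPM the share was 54.8%, with 2 of 5 members, and at 30 to 100 TPM it was 22%, with 2 of 13 members. At 100 to 300 TPM it was 6.91%, with 1 of 11 members (Napb), and at 300 to 1000 TPM 0.676%, with 0 of 5 members. In none of these ranges was the members' count far from the background. The pups' levels had a Pearson correlation of 0.70 on the log2 scale and a Spearman correlation of 0.85 over the 38 genes, and of 0.49 and 0.54 over the 12300 genes. These too are descriptions, since the genes share libraries.

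**Figure D2:**
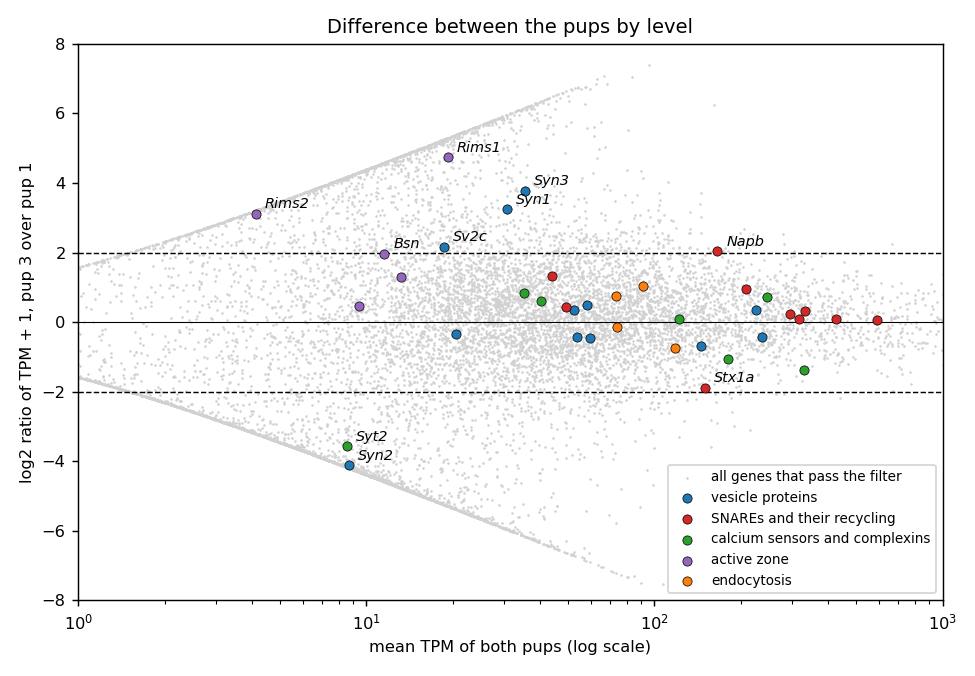
Log2 ratio of TPM + 1, pup 3 over pup 1, against the mean TPM of both pups on a log axis from 1 to 1000, with members coloured by step, all genes that pass the filter in grey within the plotted range, and dashed lines at 4-fold. The members above 300 TPM lie well inside the lines, and Rims1, Syn3, Syn1, Rims2, Sv2c and Napb lie above the upper one.

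By median, the listed SNARE genes were the highest of the members' steps, and the top 2, Snap25 and Snap47, were close to equal in the pups. Snap25 was the highest member in both pups, with 603 TPM (22212 counts) in pup 3 and 581 TPM (23698 counts) in pup 1. Snap47, a widely expressed relative of Snap25 without its membrane anchor, followed at 438 TPM in pup 3 and 414 in pup 1. Vamp2, the main vesicle SNARE of neurons, stood at 327 TPM in pup 3 and 308 in pup 1. The log2 ratios of these 3 genes were 0.05 for Snap25, 0.08 for Snap47 and 0.09 for Vamp2. The relatives of Vamp2 were lower. Vamp1, the vesicle SNARE of many brainstem and spinal neurons, was at 56.9 TPM in pup 3 and 41.7 in pup 1, and Vamp3, found in most cell types, at 63.1 TPM in pup 3 and 24.8 in pup 1. Stx7, an endosomal syntaxin, was at 319.9 TPM in pup 3 and 272 in pup 1, above the neuronal plasma membrane syntaxin.

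Syntaxin 1A, the partner of SNAP-25 in the plasma membrane, was the SNARE that stood out in the other direction. Stx1a had 2375 counts and 63.0 TPM in pup 3, against 8241 counts and 237 TPM in pup 1, a log2 ratio of -1.89. By TPM it was the only 1 of 10 genes of this step that was lower in pup 3, while with DESeq2 factors on counts Vamp2, Snap25 and Snap47 were lower too. Per 1000000 nuclear counts the gap was narrower, 84.0 in pup 3 and 246 in pup 1, since its transcripts in pup 1 were shorter on average, with an effective length of 2063 nt in pup 3 and 1679 nt in pup 1.

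The proteins that take spent SNARE complexes apart were also abundant. Nsf, the ATPase, was at 274 TPM in pup 3 and 142 in pup 1. Its adaptor Napa, alpha-SNAP, was at 369.7 TPM in pup 3 and 299 in pup 1. The brain form Napb, beta-SNAP, was at 266 TPM (20941 counts) in pup 3 and 64.4 TPM (5754 counts) in pup 1. Napb had the highest mean level of the 8 genes that passed the fold. The ratio of its count shares was 4.31, with a 95% counting interval of 4.18 to 4.43. That interval covers the counting of reads only, and the part of sampling of few molecules in the Napb difference was not tested. In its range of mean level, 100 to 300 TPM, 6.91% of all genes differed 4-fold. Napb made up 41.8% of the summed Napa and Napb level in pup 3 and 17.7% in pup 1.

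Vesicle proteins split into an even group and an uneven one. Syngr3, a membrane protein of neuronal vesicles, was at 201 TPM in pup 3 and 273 in pup 1. Dnajc5, the vesicle chaperone cysteine string protein, was at 252 TPM in pup 3 and 197 in pup 1. Syp, synaptophysin, the classic vesicle marker, was at 111 TPM in pup 3 and 179 in pup 1. Its relatives Sypl and Synpr, Syngr1, and the vesicle glycoproteins Sv2a and Sv2b spanned 17.8 to 68.1 TPM in pup 3 and 23.1 to 69.8 TPM in pup 1. All 8 of these genes lay within 4-fold.

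The synapsins, which tether vesicles to one another in the reserve pool, had the largest shift in the make-up of a family. Syn1 had 3238 counts (56.6 TPM) in pup 3 and 328 counts (5.09 TPM) in pup 1, a log2 ratio of 3.24. Syn3 had 2189 counts (66.8 TPM) in pup 3 and 112 counts (3.93 TPM) in pup 1, a log2 ratio of 3.78. Syn2 went the other way, with 4 counts (0.0558 TPM) in pup 3 and 1344 counts (17.3 TPM) in pup 1, a log2 ratio of -4.11. Syn2 thus made up 0.0452% of the family's level in pup 3 and 65.7% in pup 1, while Syn3 made up 54.1% in pup 3 and 14.9% in pup 1. Summed over the family, the level was 124 TPM in pup 3 and 26.3 in pup 1. The share of nuclear counts on Syn2 in pup 3 was 0.00352 of that in pup 1, with a 95% counting interval of 0.000958 to 0.00904.

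Sv2c, the SV2 form with the most restricted brain distribution, was also uneven, at 31.0 TPM (2012 counts) in pup 3 and 6.09 TPM (524 counts) in pup 1. It made up 31.3% of the SV2 level in pup 3 and 6.15% in pup 1. The SV2 sum was nearly the same, 98.8 TPM in pup 3 and 99.0 in pup 1. Sv2a was at 50.02 TPM in pup 3 and 69.8 in pup 1.

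**Figure D3:**
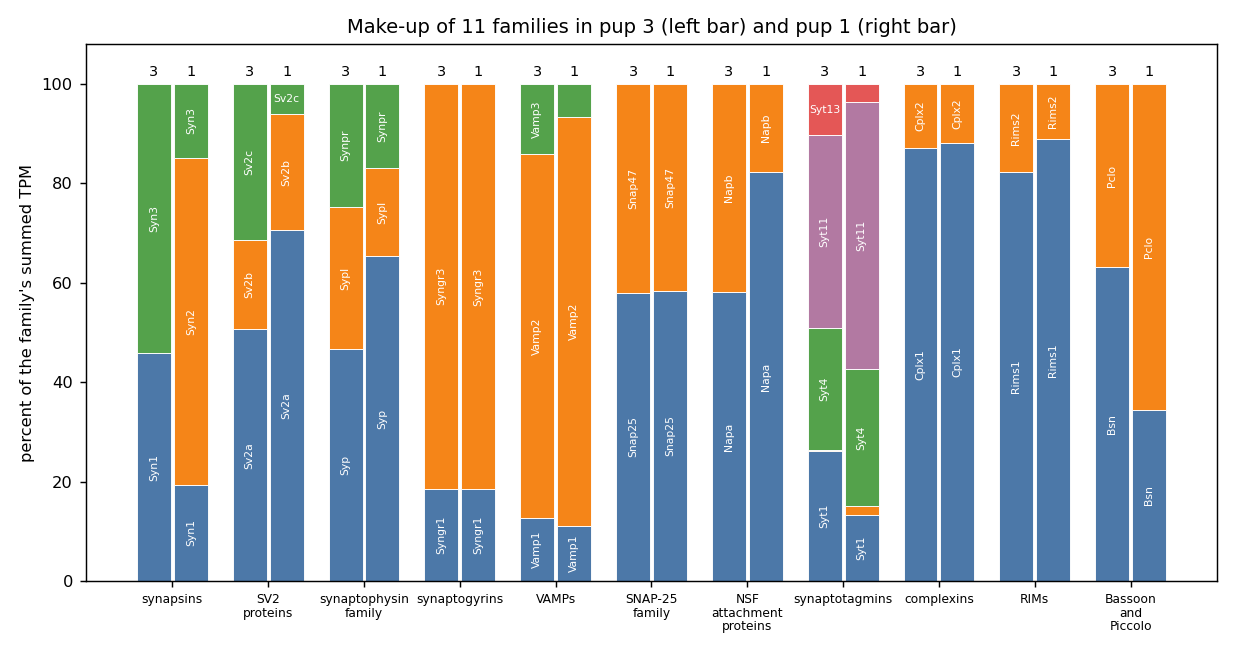
Percent of each family's summed TPM taken by each member, for 11 families, with pup 3 as the left bar and pup 1 as the right bar of each pair. The SNAP-25 family, the synaptogyrins and the complexins have nearly equal bars, and the synapsins differ most, with Syn2 at 65.7% in pup 1 and too thin to see in pup 3.

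Among the calcium sensors Syt1, the fast trigger of release in forebrain and many other neurons, was even, at 124 TPM (9573 counts) in pup 3 and 118 TPM (11352 counts) in pup 1. Syt2, the fast sensor of many hindbrain and spinal synapses in the mature animal, was at 0.480 TPM (60 counts) in pup 3 and 16.6 TPM (2328 counts) in pup 1, a log2 ratio of -3.57. Syt1 thus exceeded Syt2 in both pups. Syt11 and Syt4, which lack a residue needed for normal calcium binding, were both lower in pup 3. Syt11 was at 183 TPM in pup 3 and 477 in pup 1, and Syt4 at 117 TPM in pup 3 and 244 in pup 1. Syt13, an atypical member of the family, was at 49.2 TPM in pup 3 and 31.9 in pup 1. Syt11 was the largest share of the 5 synaptotagmins in both pups, 38.6% in pup 3 and 53.8% in pup 1.

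Complexins, which clamp and then promote fusion of primed vesicles, were in nearly the same proportion in both pups. Cplx1 was at 307 TPM in pup 3 and 184 in pup 1. Cplx2 was at 45.3 TPM in pup 3 and 25.0 in pup 1. Cplx1 made up 87.1% of the pair in pup 3 and 88.1% in pup 1.

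By TPM all 5 active zone genes were higher in pup 3, with a median log2 ratio of 1.97 that was the largest of the 5 steps, while with edgeR and DESeq2 scaling of counts Unc13a was lower in pup 3. Rims1, a scaffold that ties vesicles to calcium channels, had 1612 counts (37.9 TPM) in pup 3 and 55 counts (0.452 TPM) in pup 1, a log2 ratio of 4.75. Rims2 had 692 counts (8.19 TPM) in pup 3 and 5 counts (0.0565 TPM) in pup 1, with a ratio of count shares of 164 and a 95% counting interval of 69.8 to 506. Bsn, the giant scaffold Bassoon, had 3001 counts (18.9 TPM) in pup 3 and 653 counts (4.10 TPM) in pup 1. Its partner Pclo, Piccolo, had 3291 counts (11.1 TPM) in pup 3 and 1237 counts (7.81 TPM) in pup 1. Unc13a, the priming factor Munc13-1, was at 19.2 TPM in pup 3 and 7.16 in pup 1. By counts Unc13a was lower in pup 3, with 579 in pup 3 and 945 in pup 1, so its direction depends on the transcripts the counts were assigned to.

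The 4 endocytosis genes lay within 4-fold on the TPM scale, and Dnm1 passed it with edgeR or DESeq2 factors on counts. Dnm1 was at 122 TPM in pup 3 and 59.6 in pup 1. Amph, the dynamin-binding amphiphysin, was at 87.2 TPM in pup 3 and 148 in pup 1. Sh3gl2, endophilin A1, which bends membrane and recruits the uncoating machinery, was at 92.7 TPM in pup 3 and 54.4 in pup 1. Snap91, the clathrin adaptor AP180, was at 70.3 TPM in pup 3 and 77.9 in pup 1, a log2 ratio of -0.15.

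For 7 of the 38 genes the effective length, the mean usable length of the transcripts assigned, differed over 1.2-fold between the pups. Such a difference moves TPM apart from counts, and its share over all genes was not computed. Dnm1 had 6122 counts in pup 3 and 1376 in pup 1, a 5.26-fold difference in count share against 2.03-fold on the TPM + 1 scale, as its effective length was 2740 nt in pup 3 and 1114 nt in pup 1. Syngr1 had 1254 counts in pup 3 and 4552 in pup 1, yet 45.8 TPM in pup 3 and 61.9 in pup 1. Direction by counts differed from that by TPM for Unc13a and for Syt1, whose count shares were 338 in pup 3 and 339 in pup 1, per 1000000 nuclear counts.

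**Figure D4:**
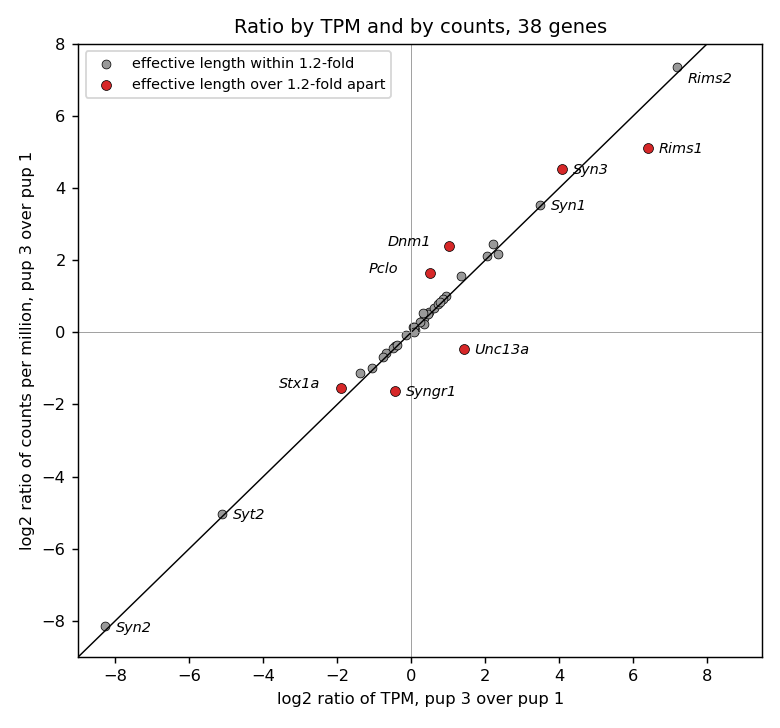
Log2 ratio of counts per 1000000 nuclear counts against the log2 ratio of TPM (no pseudocount), pup 3 over pup 1, for the 38 genes, with red points where effective lengths differ over 1.2-fold and a diagonal where both ratios are equal. Dnm1 and Pclo lie above the diagonal, and Unc13a, Syngr1 and Rims1 lie below it.

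For each of the members' 169 listed transcripts the tables give its share of the gene, as a percent of TPM. Of 33 members with more than 1 transcript, 31 had at least 50 counts in each pup, and 23 of these had the same leading transcript in both pups, where the background over 5681 such genes is 63.7 percent. For 11 members the leading transcript took 90% or more in both pups, among them Cplx1, Sv2a, Syngr3, Vamp1, Vamp2 and Napb. The share of the 5681 genes at that level was not computed, so this count has no background beside it. Different leading transcripts were found for 8 members, which were Dnajc5, Dnm1, Pclo, Rims1, Sv2b, Syn3, Syngr1 and Unc13a.

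Snap25 was assigned almost wholly to the form with the downstream copy of exon 5 shown above. Snap25-201 took 99.89% in pup 3 and 95.49% in pup 1. Snap25-202, with the upstream copy, had 10.1 counts in pup 3 and 497 counts in pup 1, or 0.1% of the gene in pup 3 and 4.51% in pup 1. The models also differ at the 3' end, where the last exon is 277 nt in Snap25-202 and 1354 nt in Snap25-201. Reads from the further part of that exon cannot be assigned to Snap25-202, whichever exon 5 the molecule held, so these percentages are no direct measure of exon 5 use.

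Dnm1 was assigned to different forms in the pups. In pup 3 the transcripts with the upstream copy of exon 10 took 73.55%, led by Dnm1-205 at 51.87%, and Dnm1-201 with the downstream copy took 11.38%. Dnm1-203 was at 14.32% in pup 3 and 0% in pup 1, and Dnm1-207, a decay target, at 15.06% in pup 3 and 1.49% in pup 1. In pup 1 the leading transcripts were Dnm1-211, a retained-intron model of 899 nt at 55.76%, and Dnm1-206, a decay target of 1520 nt at 40.46%. Neither had a count in pup 3. The upstream copy was held by 2.29% in pup 1, on 104 counts, and the downstream copy by 0%. Dnm1-211 and Dnm1-206 hold neither copy in full, so the percentages in pup 1 are no direct measure of exon 10 use.

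Active zone genes had non-coding models in the lead as well. Pclo was assigned to Pclo-203, a retained-intron model, for 92.62% in pup 3 and 0% in pup 1, while Pclo-204, a coding model, took 7.07% in pup 3 and 90.13% in pup 1. Unc13a in pup 3 was led by the retained-intron Unc13a-207 at 53.41% and the 390-nt decay target Unc13a-203 at 36.84%, which rested on 194 and 37.6 counts. The coding Unc13a-201 took 9.76% in pup 3 on 347 counts, more counts than either. In pup 1 Unc13a was led by Unc13a-201 at 53.1% with 800 counts. The retained-intron models Unc13a-202 at 35.47% and Unc13a-206 at 11.43% followed. Rims1 was led by the short coding models Rims1-207 at 60.68% and Rims1-208 at 34.73% in pup 3, and was assigned wholly to Rims1-201, on 55 counts, in pup 1. Bsn was led by Bsn-202 in both pups, 84.88% in pup 3 and 96.52% in pup 1.

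Of the synapsins, Syn1 was assigned to the Ia form (Syn1-201, with the 38 bases shown above) for 59.11% in pup 3 and 100% in pup 1. The Ib form took the other 40.89% in pup 3. The split in pup 3 was uncertain, 1901 and 1337 counts with a posterior SD of 197 counts each. Syn3 was led by the coding Syn3-201 at 66.75% in pup 3, followed by the processed transcript Syn3-205 at 30.21%, and by the retained-intron Syn3-204 at 98.68% in pup 1. Syngr1 was led by Syngr1-202 at 45.75% in pup 3, with Syngr1-203 at 28.98%, and in pup 1 by Syngr1-201, which took 25.27% in pup 3 and 84.2% in pup 1. By counts Syngr1-201 led in pup 3 too, with 863 against 276 for the 819-nt Syngr1-202 and 116 for the 576-nt Syngr1-203. Sv2b was wholly Sv2b-201 in pup 3 and divided in pup 1 between Sv2b-201 at 45.41% and Sv2b-202 at 54.59%. Both encode 2049 bases of coding sequence. Dnajc5 was led by Dnajc5-203 at 65.52% in pup 3, against 29.3% in pup 1, where the decay target Dnajc5-204 at 32.34% and Dnajc5-201 at 31.69% were nearly level with it.

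Syntaxin 1A was assigned to Stx1a-201 alone in pup 3, at 100%. In pup 1 Stx1a-201 took 53.81%, Stx1a-203, a processed transcript, 24.56%, and the decay target Stx1a-204 with the 83 bases shown above 21.27% on 2159 counts. Snap91-202 with the 84-base exon took 99.15% in pup 3 and 72.9% in pup 1, and Snap91-201 without it 0% in pup 3 and 25.7% in pup 1. Syp-201 took 69.17% in pup 3 and 96.97% in pup 1, with the retained-intron Syp-205 at 30.62% in pup 3 and 2.24% in pup 1.

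**Figure D5:**
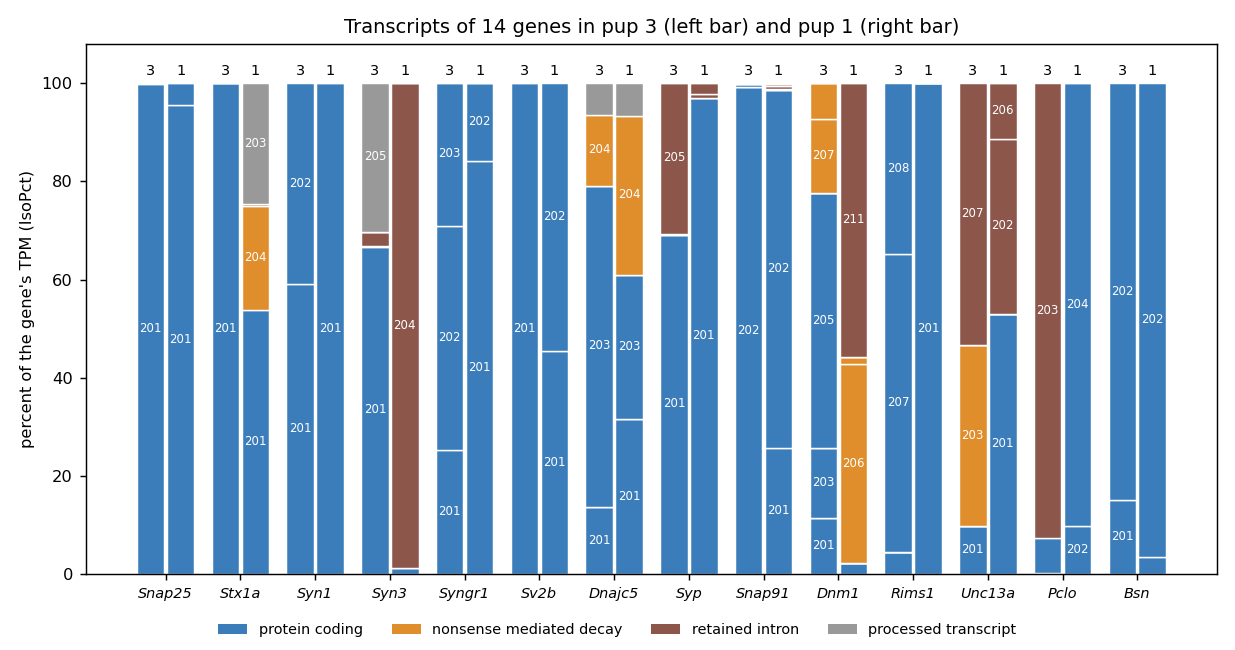
Percent of each gene's TPM taken by each of its transcripts for 14 genes, coloured by annotated class and numbered by transcript, with pup 3 as the left bar and pup 1 as the right bar. Snap25 is almost one block in both pups, while Dnm1, Syn3 and Pclo change class between the bars.

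Level was recomputed over protein-coding transcripts only, a view chosen after the values were seen. At least 90% of the level was on coding transcripts in both pups for 28 members. The other 10 were Syn3, Syp, Dnajc5, Vamp3, Stx1a, Napa, Syt1, Unc13a, Pclo and Dnm1. Syn3 then stood at 44.6 TPM in pup 3 and 0.0519 in pup 1, a log2 ratio of 5.44 that rests on 4.2 counts in pup 1. Dnm1 stood at 94.9 TPM in pup 3 and 1.37 in pup 1, a log2 ratio of 5.34. Pclo turned round, with 0.819 TPM in pup 3 and 7.81 in pup 1, a log2 ratio of -2.28. On coding transcripts 6 members were at least 4-fold higher in pup 3, with Dnm1 added and Napb, at a log2 ratio of 1.99, left just inside 4-fold. Pclo joined Syn2 and Syt2 as the 3 members at least 4-fold higher in pup 1. Over all genes, neither the share past the fold on coding transcripts nor the share with 90% on them was computed. The member counts given here therefore have no background beside them. Unc13a and Syt1 turned round too, with Unc13a at 1.87 TPM in pup 3 and 3.80 in pup 1. Stx1a narrowed to 63.0 TPM in pup 3 and 127 in pup 1. Among active zone genes Rims1, Rims2 and Bsn were higher in pup 3 on coding transcripts as well, and Pclo and Unc13a were not. The Rims1 level in pup 3 lay mostly on the short coding models Rims1-207 and Rims1-208. Rims1-201, the only Rims1 model with counts in both pups, had 186 counts in pup 3 and 55 in pup 1.

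Exons of 10 members share bases with another annotated gene, on the opposite strand for 9 of them. The sources used here do not say whether strand was used in counting, and without it such reads cannot be told apart. The retained-intron Syn3-203 shares 1733 bases with Timp3 and held 173 counts in pup 3, against 0 in pup 1. Unc13a-201 shares 495 bases with Colgalt1. Syp-201 shares 875 bases with Gm14703, which had 0 counts in both pups.

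Other genes of the same steps put the members in context. Of 96 further genes 95 were matched and 67 were detected in both pups, while pup 3 alone had 7, pup 1 alone had 16 and 5 were found in neither. Of the 87 with enough counts, 12 were at least 4-fold higher in pup 3, 22 were at least 4-fold higher in pup 1 and 53 lay within 4-fold, with a median log2 ratio of -0.04. These shares are read against the same backgrounds of 16.7 and 24 percent.

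Among other vesicle proteins Rab3a, the main vesicle GTPase of neurons, was at 677 TPM in pup 3 and 642 in pup 1. Its relative Rab3b was at 370.2 TPM in pup 3 and 158 in pup 1, and Svop at 138 TPM in pup 3 and 72.3 in pup 1. Of 17 with enough counts 0 were at least 4-fold higher in pup 3 and 5 in pup 1. Slc17a8 (the glutamate transporter VGLUT3), Slc18a2 (the monoamine transporter VMAT2) and Slc18a3 (the acetylcholine transporter) had 0 counts in pup 3. In pup 1 they had 757 counts for Slc17a8, 2237 for Slc18a2 and 239 for Slc18a3. Scamp5 was at 18.7 TPM in pup 3 and 95.004 in pup 1, and Syngr2 at 7.02 TPM in pup 3 and 91.8 in pup 1.

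Other SNAREs and their regulators were led by the endosomal Vti1b at 339 TPM in pup 3 and 219.9 in pup 1. Stx12 was at 273 TPM in pup 3 and 216 in pup 1, and Stx6 at 103 TPM in pup 3 and 57.0 in pup 1. At least 4-fold higher in pup 3 were 6 of 20, Stxbp5l, Stx8, Stx4a, Vti1a, Vamp8 and Snap23, of which Stx8 and Stx4a had 0 counts in pup 1. Stxbp5l, the regulator tomosyn-2, was at 61.7 TPM in pup 3 and 5.11 in pup 1. At least 4-fold higher in pup 1 were another 6, Snapin, Stxbp2, Stx2, Stx3, Stx16 and Stxbp5, of which the first 4 had 0 counts in pup 3.

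Of 15 other calcium sensors and complexins 7 were detected in both pups. Syt5 was at 56.9 TPM in pup 3 and 124 in pup 1. Syt16 was at 112 TPM in pup 3 and 57.5 in pup 1. Syt9 was at 37.5 TPM in pup 3 and 9.20 in pup 1, and Syt17 at 10.7 TPM in pup 3 and 35.7 in pup 1. At least 4-fold higher in pup 3 were Syt3, at 28.0 TPM in pup 3 and 1.63 in pup 1, and Syt7, at 14.6 TPM in pup 3 and 0.598 in pup 1. At least 4-fold higher in pup 1 were Syt6, at 0.112 TPM in pup 3 and 15.5 in pup 1, and Syt12, with no count in pup 3 and 19.8 TPM in pup 1.

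The other active zone genes had a median log2 ratio of -1.31 over 17 genes, against 1.97 over the 5 members, and 2 were at least 4-fold higher in pup 3 and 8 at least 4-fold higher in pup 1. Lin7c, an adaptor, was at 157 TPM in pup 3 and 263 in pup 1, Lin7b at 53.7 TPM in pup 3 and 72.0 in pup 1, and Ppfia2, a liprin, at 47.9 TPM in pup 3 and 25.6 in pup 1. Cacna1b, the N-type calcium channel, was at 55.0 TPM in pup 3 and 11.97 in pup 1, and Lin7a at 54.2 TPM in pup 3 and 12.5 in pup 1. By count share Cacna1b was only 1.61-fold higher in pup 3, with 3223 counts in pup 3 and 2369 in pup 1. Its effective length was 3209 nt in pup 3 and 9556 nt in pup 1. Cask was at 18.1 TPM in pup 3 and 82.3 in pup 1. Of the members' relatives, Rims3 had no count in pup 3, against 1023 in pup 1, Rims4 none in pup 3, against 2260 in pup 1, and Unc13b none in pup 3, against 1206 in pup 1. Tspoap1, Ppfia1, Ppfia3 and Ppfia4 were also at least 4-fold higher in pup 1.

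Of the other endocytosis genes 21 of 24 lay within 4-fold. Hspa8, the chaperone that strips clathrin and serves many other tasks, was at 2262 TPM in pup 3 and 3591 in pup 1. Ap2m1, of the adaptor AP-2, was at 1193 TPM in pup 3 and 1155 in pup 1, its partner Ap2s1 at 598 TPM in pup 3 and 159 in pup 1, and the light chain Clta at 379 TPM in pup 3 and 320.5 in pup 1. Ap2a1 and Ston2 were at least 4-fold higher in pup 3, and Bin1, with 0 counts in pup 3 and 1175 in pup 1, at least 4-fold higher in pup 1.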

How the data were processed

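The authors deposited a gene table and a transcript table for each of 2 libraries, made on mm10 with annotation M4 per the deposited notes, in the column layout of RSEM. Per the file headers these give expected counts, TPM, FPKM and, as a percent (IsoPct), each transcript's share of its gene. The deposited TPM and FPKM values are relative to all entries, spike-ins included. No source used here names the aligner, any version or the use of strand. The 2 libraries form 1 group, so no comparison between groups and no test was possible. Whether the pups come from separate litters is not given, and both share a donor record.

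Of 43346 mouse identifiers 42462 (98%) matched GENCODE M21 on GRCm38, from which symbols, classes, coordinates (1-based) and sequences were taken. TPM was rescaled to 1000000 over 43309 nuclear genes. Detection meant an expected count of at least 5, and a 4-fold difference was counted on log2(TPM + 1) among genes with at least 50 counts in at least 1 library. Intervals are exact at 95%. Python 3.11.15 and pandas 2.3.3 were used, and edgeR 4.0.16 (TMM) and DESeq2 1.42.0 supplied alternative scaling factors on expected counts rounded to whole numbers. Pseudocounts of 0.1 and 5, folds of 2 and 8, other filters, deposited TPM, FPKM and each library alone were tried.

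The members and all gene lists were chosen with earlier results of these data known, so their counts are no independent evidence. All 38 members are named, and of each list of other genes of the same steps the 4 with the highest mean TPM and every one past 4-fold. Of the transcripts, those with at least 10 percent of a gene in at least 1 pup are named for the genes described by isoform. Of the 96 other genes Vamp7 had no match.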

Additional observations from a re-analysis of the deposited data

How the results depend on the processing

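No paired analysis was possible because the 2 libraries form 1 group and no test was made. The number of members detected in both pups was 37, and 38, 36 and 34 at minimums of 1 count, 10 counts and 1 TPM, and with 1 library alone 37 to 38. The 6 members at least 4-fold higher in pup 3 became 3 with a pseudocount of 5 and 10 at a fold of 2. Over all 12300 genes, 2053 became 1282 and 3435 under the same settings. The 2 members higher in pup 1 became 1 with a pseudocount of 5 and 5 at a fold of 2. Over all genes 2956 became 1591 and 4272. A pseudocount of 5 lost Sv2c, Napb, Syt2 and Rims2, and one of 0.1 added Bsn. Scaling by edgeR TMM or by DESeq2 size factors kept the counts at 6 and 2, but lost Sv2c and Napb and added Bsn and Dnm1. Over all genes TMM gave 2049 higher in pup 3 and 3221 in pup 1, and DESeq2 factors 2031 in pup 3 and 3238 in pup 1. TMM and DESeq2 factors both work on counts without length, and turned the direction of Vamp2, Syt1 and Unc13a, and DESeq2 also that of Snap25 and Snap47. They moved the median of genes detected in both pups by -0.10 and -0.13. Scaling over protein-coding genes lost Napb. The members' median log2 ratio of 0.35 was 0.41 with FPKM, 0.21 with TMM, 0.19 with DESeq2 factors and 0.29 on protein-coding transcripts only, the last chosen after seeing the data, and stayed above 0 under every setting run. The median log2 level of 6.02 was 5.86 with deposited TPM, 6.20 with scaling over protein-coding genes, and 5.95 to 6.10 with 1 library alone. Leading transcripts were shared by 22 members at 200 counts and by 25 when chosen by expected count, against 23. At 13 pg of input and 1 library per pup, differences of the lower genes cannot be told apart from sampling of few molecules.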

Other observations

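Promoter windows from RefSeq on GRCm38.p6, 250 bases before to 50 after each gene's start, were listed for 29 of the 38 members. The motif GGGCGG, on either strand, was found in 23 of 29 (79.3%), against 38.2% of 27025 genes with a window. Median GC content was 66% in the members' windows and 52.75% in all windows, with 25 CpG dinucleotides against 7. TGACGTCA, the full cAMP response element, was found in 3 (10.3%, Napa, Sh3gl2 and Syn1), against 2.03%. TATAAA was found in 1 (3.45%, Sv2b), against 15.7%. A match is a run of letters in a window, and no binding was measured here.

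The members are spread over the genome, with 5 on chromosome 2 (Dnajc5, Snap25, Napb, Syt13 and Dnm1). Levels within 1.5-fold of each other in the pups were found for 16 members. The share of all genes within 1.5-fold was not computed, so this count has no background beside it. Bsn-201, the full-length coding model of Bassoon at 15938 nt, took 828 counts in pup 3 and 46.8 in pup 1, while the shorter Bsn-202 at 7496 nt took 2173 in pup 3 and 606 in pup 1. Timp4, which shares 90 bases with Syn2, lies on its opposite strand and had 2284 counts in pup 3 and 3634 in pup 1.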
